A study of Mus musculus with 8 samples.

Results

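The homeobox families described here are 77 protein-coding genes among the 36536 genes that were counted in each library, those without a read included. They were chosen by their symbol in the NCBIM37 (mm9) mouse annotation: *Prox1*, the numbered genes of the *Dlx*, *Emx*, *Otx*, *Lhx*, *Barhl*, *Msx*, *Pax*, *Irx*, *Hmx*, *Gbx*, *Meis*, *Pbx*, *Tlx*, *Isl*, *Prrx* and *Alx* families, the sine oculis-related genes (such as *Six2*) and the *Pou* genes. 4 further genes with such symbols were not analysed here. The libraries are RNA-seq of cells sorted from freshly dissected, untreated cochleas of *LFng-GFP* BAC transgenic mice, strain B6;FVB-Tg(Lfng-EGFP)HM340Gsat/Mmucd. Cells with the brightest GFP signal (GFP+) and cells without it (GFP-) were collected at postnatal day 1 (P1) and at postnatal day 6 (P6), which gives 4 groups with 2 replicate libraries each (n = 2). All 4 groups carry the transgene, in which the control region of the Notch modulator *Lfng* drives GFP in most supporting cell types, the cells that surround the sensory hair cells. Inner pillar cells lack it, dimly labelled cells were not collected, and GFP- cells are a mixture of all other cell types in the dissected tissue. Each library holds RNA pooled from the cochleas of many pups. According to the methods, the cochlear duct was dissected differently at the younger and the older age, so a change of age cannot be told apart from a change in the tissue that was taken.

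Homeobox genes encode transcription factors that bind DNA through a fold of 3 helices, the homeodomain, and the third of these reads the bases. Families of these genes set the position and identity of cells in the embryo. *Pax2* and *Pax8* mark the otic placode, *Dlx5* and *Hmx3* act in the dorsal, vestibular part of the otic vesicle, *Isl1* marks sensory and neural precursors, and *Prox1* marks supporting cells of the organ of Corti. Outside the sensory epithelium, *Prrx1* and *Prrx2* are genes of mesenchyme, *Pax3* of neural crest, *Pou3f1* of Schwann cells and *Pou4f1* and *Pou4f2* of sensory neurons.

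The stretch of coding sequence for the core of the third helix is shown for genes that carried the differences between groups and, beside *Irx1*, for the evenly expressed *Irx3*, because it is the signature by which these otherwise unlike genes belong together. Each stretch is 24 bases, read 5′ to 3′ on the coding strand from the NCBIM37 genome. Capitals mark the codons for tryptophan, phenylalanine, asparagine and arginine that the homeodomains share.
*Prox1* (chr1:191970969-191970992, minus strand, exon 4 of 5): TGGTTCagcAATttcCGTgagttt
*Emx1* (chr6:85153912-85153935, plus strand, exon 3 of 3): TGGTTCcagAATcggAGGacaaaa
*Emx2* (chr19:59538379-59538402, plus strand, exon 3 of 3): TGGTTTcagAACcggAGAacgaaa
*Isl1* (chr13:117093314-117093337, minus strand, exon 4 of 6): TGGTTTcaaAACaagCGGtgcaag
*Isl2* (chr9:55392083-55392106, plus strand, exon 4 of 6): TGGTTTcagAACaagCGTtgcaag
*Six2* (chr17:86086759-86086782, minus strand, exon 1 of 2): TGGTTCaagAACcggCGGcagcgc
*Irx1* (chr13:72097458-72097481, minus strand, exon 2 of 4): TGGTTCgccAATgcgCGCcggcgc
*Irx3* (chr8:94324413-94324436, minus strand, exon 2 of 4): TGGTTCgccAACgcgCGCcggcgc
*Prrx1* (chr1:165188047-165188070, minus strand, exon 3 of 4): TGGTTTcagAACcgaAGAgccaag
*Prrx2* (chr2:30735015-30735038, plus strand, exon 3 of 4): TGGTTCcagAACcgcCGTgccaag
*Dlx5* (chr6:6828456-6828479, minus strand, exon 3 of 3): TGGTTTcagAACaaaAGAtccaag
*Msx3* (chr7:147233831-147233854, minus strand, exon 2 of 2): TGGTTTcagAACcgcCGAgccaaa

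Of the 77 genes, 70 held these codons in frame on the coding strand, against 227 of the 21918 protein-coding genes whose coding start is complete (1.04%). *Barhl2*, *Pax1*, *Pax2*, *Pax5*, *Pax8* and *Pax9* did not hold them. The match is a description of letters and says nothing of the activity of a protein. Over the whole 180-base homeobox, 83.3% of the bases were identical between *Isl1* and *Isl2*, and 78.9% both between *Emx1* and *Emx2* and between *Prrx1* and *Prrx2*. Within the 24 bases shown, *Irx1* and *Irx3* differ at 1 base and *Isl1* and *Isl2* at 2. The first pair had unlike levels across the 4 groups, whereas *Isl1* and *Isl2* were both higher in GFP+ cells.

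Between 17769024 and 67695039 counts fell on genes in a library, and P6 GFP+ replicate 1 was the shallowest. Levels of 1 gene are given as counts per 1000000 counts on genes (CPM), where 1 count is worth from 0.0148 to 0.0563 CPM. Supporting cell markers were checked first: 7 of 8 were higher in GFP+ than in GFP- cells at each age. Of all genes tested, 16.6% were higher at P1 and 7.72% at P6. The eighth marker, *Slc1a3*, was lower in GFP+ cells at P1. The sum of all 8 was 6764 to 9020.1 CPM in the GFP+ libraries and 697 to 828 CPM in the GFP- libraries. *Lfng* made up 2365 to 3755 CPM of the sum in the GFP+ libraries. Its control region drives the GFP used for the sort, so its difference describes the sort and is no independent check. The 8 hair cell markers were not absent from GFP+ cells, with sums of 736 and 840 CPM at P1 against 496 and 467 CPM in GFP- cells, and 5 of them were higher in GFP+ cells. *Atoh1*, which defines young hair cells, had 7.62 and 9.48 CPM in P1 GFP+ cells, its highest values, and 0.343 and 0.396 CPM in P1 GFP- cells. *Otof* had 151 and 191 CPM against 18.2 and 16.6 CPM. Most of the sums was *Myo6*, at 442 and 475.5 CPM in P1 GFP+ and 406 and 348 CPM in P1 GFP- cells. The sums therefore differ less between the fractions than *Atoh1* and *Otof* do.

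A pair of libraries stood apart from their replicates, and both touch the homeobox genes. P6 GFP+ replicate 2 held more RNA of GFP- cell types than replicate 1, with summed mesenchyme markers of 3490 against 1771 CPM, melanocyte markers of 99.0 against 33.9 CPM and endothelial markers of 201 against 51.9 CPM. P1 GFP- replicate 2 held summed neuronal markers of 753 CPM, against 301 CPM in replicate 1. Its summed supporting cell markers were 800 CPM, against 697 CPM in replicate 1. Since these are bulk libraries, fewer cells of a type and less RNA per cell cannot be told apart.

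Expression covered a wide range across the 77 genes. No count was found for *Barhl2*, *Hmx1* and *Tlx2* in any library, and *Dlx4*, *Lhx8*, *Pax4*, *Tlx1* and *Tlx3* had at most 3 counts in each. Another 25 genes had more than 3 counts somewhere but a mean below 1 CPM in all 4 groups, among them *Alx1*, *Gbx1*, *Gbx2*, *Hmx2*, *Hmx3*, *Irx4*, *Lhx1*, *Lhx2*, *Lhx4*, *Lhx5*, *Lhx6*, *Lhx9*, *Msx2*, *Pax1*, *Pax5*, *Pax6*, *Pax7*, *Pax8*, *Pax9*, *Pou1f1*, *Pou2f3*, *Pou5f1*, *Six3* and *Six6*. Placodal *Pax8* was thus counted at most 4 times in a library. In 19 genes the highest group mean was between 1 and 10 CPM (*Alx4*, *Dlx1*, *Dlx2*, *Dlx3*, *Dlx6*, *Emx1*, *Irx6*, *Meis1*, *Meis2*, *Msx1*, *Otx1*, *Otx2*, *Pax2*, *Pax3*, *Pbx4*, *Pou2f2*, *Pou3f2*, *Pou4f1* and *Pou4f2*). The remaining 24 reached 10 CPM in at least 1 group, and 8 of these reached 100 CPM, among them *Emx2*, *Irx1*, *Isl1*, *Pbx2*, *Pou3f3*, *Pou6f1* and *Prox1*.

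**Figure D1:**
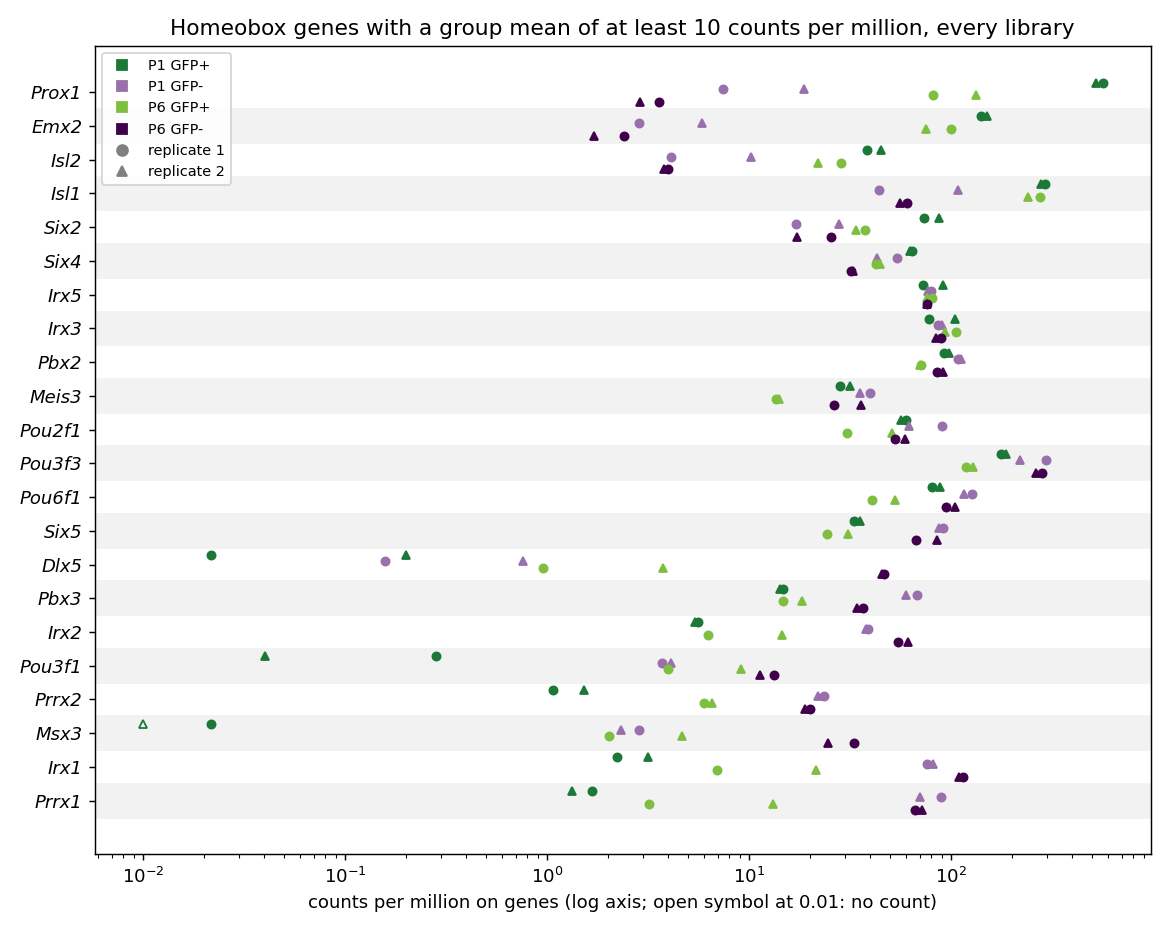
Level of homeobox genes with a group mean of at least 10 CPM, with CPM on a log axis, 1 symbol per library, colours for the 4 groups and shapes for the replicates. *Prox1*, *Emx2* and *Isl2* separate the GFP+ from the GFP- libraries at both ages, *Irx3* and *Irx5* lie together in all 8 libraries, and *Dlx5* is above 40 CPM in the P6 GFP- libraries and below 4 CPM elsewhere.

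Genes were compared with each other only after division by exon length, as CPM per kilobase of exon. In P1 GFP+ cells *Prox1* ranked first, with 136 and 126 CPM per kilobase, and *Isl1* second, with 116 and 111. The octamer-binding gene *Pou3f3* (57.6 and 61.5) and *Emx2* (52.8 and 56.0) had lower levels, and the replicates of these 4 genes did not overlap between genes. *Irx3*, *Six2* and *Irx5* were lower still and overlapped. In P6 GFP+ cells *Isl1* ranked first (109 and 95.1 CPM per kilobase), and *Prox1* had 19.7 and 32.1, a range that overlapped those of *Emx2* and *Irx5* ahead of it. *Pou3f3* led in GFP- cells at both ages, with 96.1 and 71.6 CPM per kilobase at P1 and 92.1 and 86.3 at P6. *Irx1* had 36.8 and 39.7 CPM per kilobase in GFP- cells at P1, and it was second at P6 with 55.6 and 53.2.

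Summed over all 77 genes, the level was 2107 and 2171 CPM in P1 GFP+ cells, 1619 and 1579 CPM in P1 GFP- cells, 1297 and 1411 CPM in P6 GFP+ cells, and 1497 and 1499 CPM in P6 GFP- cells. *Isl1* and *Isl2* together had 262 to 331 CPM in the GFP+ libraries and 48.4 to 119 CPM in the GFP- libraries, and *Prrx1* and *Prrx2* together had 2.75 to 19.7 CPM in GFP+ and 86.4 to 113 CPM in GFP- libraries. The 6 *Dlx* genes together had 0.964 to 11.2 CPM in all libraries other than P6 GFP-, where they had 52.2 and 52.1 CPM. *Prox1* alone made up 564 and 520.3 CPM of the sum in P1 GFP+ cells. The 7 *Lhx* genes, relatives of *Isl1* with LIM domains, together reached at most 0.872 CPM in any library.

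To see which homeobox genes distinguish supporting cells, GFP+ cells were compared with GFP- cells at P1. The comparison used the quasi-likelihood test of edgeR, with p-values adjusted by Benjamini and Hochberg's method over all 18682 genes with enough counts. A gene was called when p and the adjusted p were below 0.01. Of the 48 homeobox genes tested, 7 were higher in GFP+ cells (14.6%, against 16.6% of all genes tested) and 18 were lower (37.5%, against 20.7%). Requiring a fold change above 4 as well left 5 higher genes (against 6.46% of all) and 16 lower ones (against 11.4%). The median log2 fold change of the 48 genes was -0.997, and that of all genes tested was 0.01. With only 2 libraries a side the counts depend on single libraries: they were 4 higher and 12 lower without P1 GFP+ replicate 1, 4 and 11 without P1 GFP+ replicate 2, 9 and 23 without P1 GFP- replicate 1, and 9 and 22 without P1 GFP- replicate 2.

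Among the higher genes were *Prox1*, *Emx1*, *Emx2*, *Isl1*, *Isl2* and *Six2*. *Prox1*, a divergent homeobox gene, had 564 and 520.3 CPM in P1 GFP+ cells and 7.47 and 18.8 CPM in P1 GFP- cells (log2 fold change 5.45). The GFP+ gate had been picked with the help of *Prox1* measured by quantitative PCR, so its difference between the fractions describes the sort and is no finding. *Prox1* also shares 3.22% of its exon bases with the antisense gene *Gm17566*, whose reads cannot be told apart without strand.

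*Emx2*, which sets the orientation of hair bundles in parts of the ear, measured 142 and 150.4 CPM in P1 GFP+ cells and 2.85 and 5.88 CPM in P1 GFP- cells. Both GFP+ libraries were far above both GFP- libraries, (log2 fold change 5.13, standard error 0.32, edgeR adjusted p = 7.16e-05). Its relative *Emx1*, an early gene of the cerebral cortex, was present at a much lower level but with the same direction, at 1.18 and 2.05 CPM in GFP+ cells and 0.0264 and 0.0317 CPM in GFP- cells. The GFP- value rests on 3 counts, which gives a ratio of 49.98 with a 95% interval from 16.6 to 246 for counting error alone.

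*Isl1* encodes a LIM homeodomain protein of sensory precursors and neurons. It had 292 and 280.4 CPM in P1 GFP+ cells against 44.3 and 108 CPM in P1 GFP- cells, and the groups did not overlap although the GFP- replicates differed over 2-fold (log2 fold change 2.01, standard error 0.39, edgeR adjusted p = 0.00651). The same pattern was seen for *Isl2*, known from motor and sensory neurons, with 38.6 and 45.2 CPM against 4.12 and 10.3 CPM (log2 fold change 2.62, standard error 0.39, edgeR adjusted p = 0.0024). The higher GFP- value of both genes came from replicate 2, the library with more neuronal markers, in which *Emx2*, *Prox1*, *Pou2f2*, *Pou4f1* and *Pou4f2* were also over 2-fold above replicate 1. Supporting cell markers were mostly higher in replicate 2 as well. *Lfng* had 17.2 and 32.5 CPM in P1 GFP- replicates 1 and 2, and *Fgfr3* had 17.3 and 30.4 CPM. *Slc1a3* went the other way, at 379 and 312 CPM. The part of neurons or supporting cells in these values was not tested. Without P1 GFP- replicate 2 *Emx2* had a log2 fold change of 5.77. The calls of *Isl1* and *Isl2* were lost without either P1 GFP+ library, with edgeR adjusted p values of 0.0105 to 0.0272. Without P1 GFP- replicate 2 the log2 fold changes were 2.79 and 3.43 and the calls held.

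The sine oculis-related genes split between the fractions. *Six2*, known from the progenitors of the kidney and from head mesenchyme, had 73.9 and 87.3 CPM in GFP+ cells and 17.0 and 27.9 CPM in GFP- cells at P1 (log2 fold change 1.94, standard error 0.23, edgeR adjusted p = 0.0009). *Six4* did not pass the test (log2 fold change 0.49, adjusted p = 0.0216). *Six5* went the other way, with 33.0 and 35.5 CPM in GFP+ cells and 91.7 and 87.4 CPM in GFP- cells (log2 fold change -1.28, standard error 0.09, edgeR adjusted p = 9.65e-05). *Six3* and *Six6*, genes of the eye and forebrain, had at most 8 counts in any library.

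Genes known from mesenchyme and neural crest were among those lower in GFP+ cells. *Prrx1* had 1.68 and 1.33 CPM in P1 GFP+ cells and 89.2 and 70.4 CPM in P1 GFP- cells (log2 fold change -5.59, standard error 0.20, edgeR adjusted p = 1.51e-05). *Prrx2* measured 1.07 and 1.53 CPM in GFP+ cells against 23.5 and 21.9 CPM in GFP- cells (log2 fold change -4.06, standard error 0.21, edgeR adjusted p = 4.03e-05). In both genes every GFP+ library was over 10-fold below every GFP- library. Mesenchyme markers moved in the same direction, with 7 of 8 lower in GFP+ cells and sums of 530.4 and 475 CPM in GFP+ and 15576 and 13696 CPM in GFP- cells, and *Twist1*, 1 of the defining ones, was at 1.11 and 1.25 CPM in GFP+ cells. *Pax3*, a gene of neural crest and melanocyte precursors, had 1 count in the pair of P1 GFP+ libraries and 393 counts in the pair of GFP- libraries, and the 5 melanocyte markers summed to 8.49 and 9.44 CPM in GFP+ and 410 and 280.2 CPM in GFP- cells. The part of these cell types in the levels was not tested.

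The 6 Iroquois genes, which belong with *Meis* and *Pbx* to the TALE class whose homeodomain has an extended loop, fell into sets with different patterns. *Irx1* had 2.23 and 3.17 CPM in P1 GFP+ cells and 75.8 and 81.8 CPM in P1 GFP- cells (log2 fold change -4.80, standard error 0.17, edgeR adjusted p = 1.4e-05). *Irx2*, in the same cluster on chromosome 13, had 5.59 and 5.38 CPM in GFP+ cells and 38.8 and 38.2 CPM in GFP- cells (log2 fold change -2.70, standard error 0.12, edgeR adjusted p = 2.84e-05). Thus both genes were lower in each GFP+ library than in each GFP- library. *Irx4* of that cluster had at most 13 counts in a library. In contrast, *Irx3* and *Irx5* of the other cluster, on chromosome 8, had nearly the same level in both fractions. *Irx3* measured 78.3 and 105 CPM against 86.2 and 90.9 CPM (log2 fold change 0.15, standard error 0.13, edgeR adjusted p = 0.391), and *Irx5* measured 72.7 and 91.8 CPM against 79.5 and 77.5 CPM (log2 fold change 0.17, standard error 0.11, edgeR adjusted p = 0.264). Their GFP+ and GFP- libraries overlapped. *Irx6*, also on chromosome 8, stayed at 0.241 to 1.44 CPM in all libraries.

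Among the neural POU genes, *Pou4f2*, which specifies ganglion neurons, had 0.327 and 0.281 CPM in P1 GFP+ cells and 2.69 and 7.51 CPM in P1 GFP- cells (log2 fold change -3.93, standard error 0.61, edgeR adjusted p = 0.00271). Its high value came from the GFP- library with more neuronal markers, without which the log2 fold change was -3.01 and the call held. *Pou3f1* had 0.284 and 0.0402 CPM against 3.72 and 4.12 CPM, and *Pou2f2*, *Pou2f3* and *Pou3f2* were also lower in GFP+ cells, at log2 fold changes of -3.93, -4.53 and -2.12. A pseudogene entry on the same strand covers 99.967% of the exon bases of *Pou3f1*. That entry was among the genes counted and had no count in any library. The counts of *Pou3f1* are therefore uncertain in every comparison. The calls of *Pou4f2*, *Pou2f2*, *Pou2f3* and *Pou3f2* were lost without either P1 GFP+ library, with edgeR adjusted p values of 0.0121 to 0.0262. In contrast *Pou4f1* did not differ beyond its spread, with 2.77 and 4.98 CPM in GFP+ and 2.06 and 6.15 CPM in GFP- cells. The more abundant *Pou2f1*, *Pou3f3* and *Pou6f1* had log2 fold changes of -0.28, -0.39 and -0.43 and did not pass the test. *Pou6f1* missed it narrowly (edgeR adjusted p = 0.0102), and DESeq2 called it lower in GFP+ cells.

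*Dlx1*, known for its part in interneurons and in the jaw skeleton, had 0.698 and 0.562 CPM in P1 GFP+ and 7.39 and 6.16 CPM in P1 GFP- cells (log2 fold change -3.29, standard error 0.27, edgeR adjusted p = 0.000219). Both GFP+ libraries lay below 1 CPM, although 6.21% of the exon bases of *Dlx1* are shared with the antisense gene *Dlx1as*. Its neighbour *Dlx2*, 9.427 kb away on chromosome 2, was lower in the same manner with a log2 fold change of -3.82 (edgeR adjusted p = 0.00243). Of the craniofacial *Alx* genes, *Alx4* was lower in GFP+ cells (log2 fold change -3.38), and *Alx1* had no count in the P1 GFP+ libraries against 30 counts in GFP- cells, which makes it at least 7.002-fold lower against a floor of 3 counts over the group. *Alx1* has a duplicate entry in the annotation over nearly the same exons. That entry is not among the genes counted here, so whether it affected the counts of *Alx1* is not known. The calls of *Alx1*, *Alx4* and *Meis2* were lost without either P1 GFP+ library, with edgeR adjusted p values of 0.0115 to 0.0726. *Msx3*, a gene best known from the dorsal neural tube, had 1 count in P1 GFP+ cells and 255 counts in P1 GFP- cells. Among the Hox cofactors, *Pbx3* (log2 fold change -2.03) and *Meis2* (-1.94) were lower in GFP+ cells, whereas *Pbx2*, *Pbx4*, *Meis1* and *Meis3* had log2 fold changes between -0.23 and 0.53 and were not called.

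**Figure D2:**
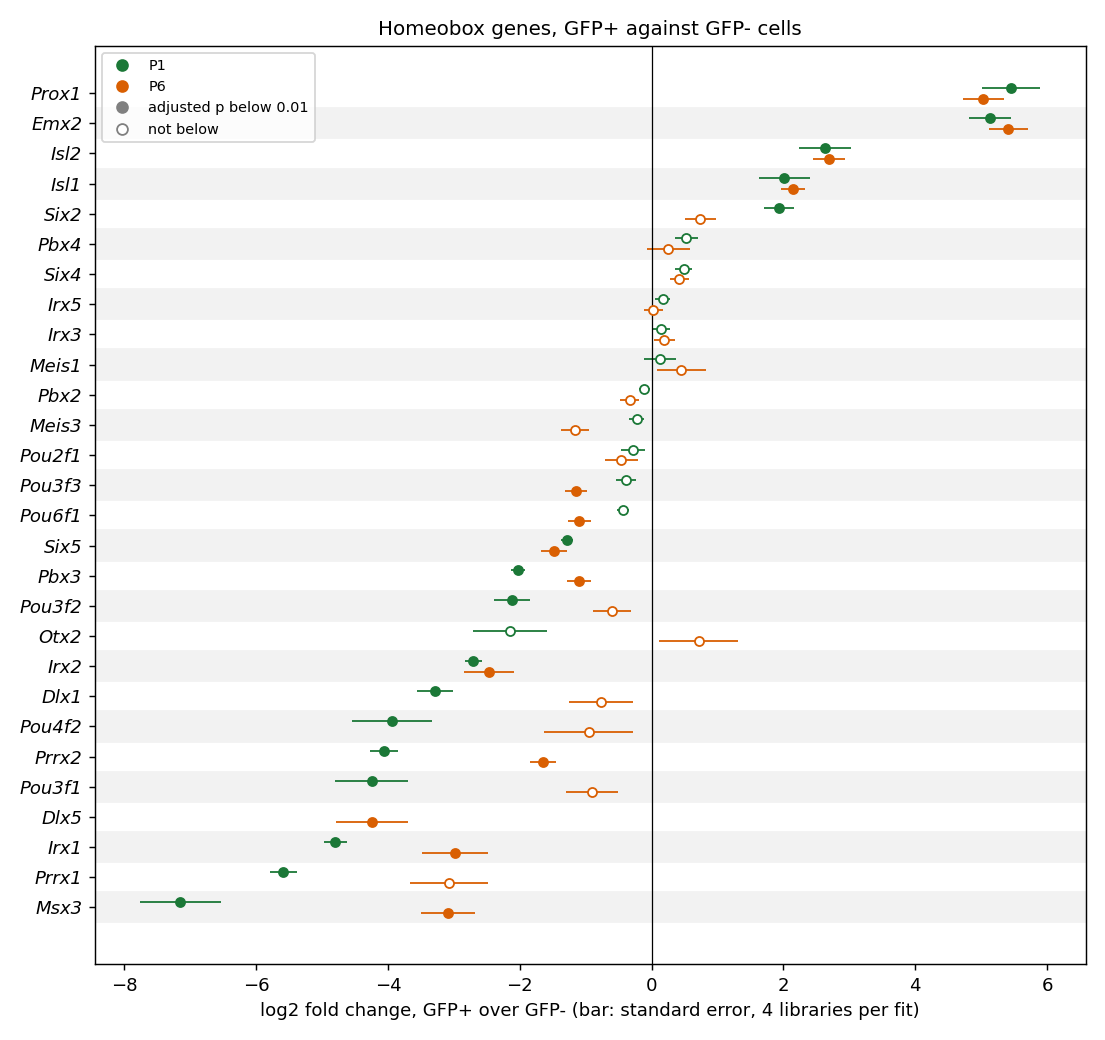
Log2 fold change of GFP+ over GFP- cells at P1 (green) and at P6 (orange) for the homeobox genes with a mean of at least 5 CPM in 1 of the groups, with bars for the standard error of fits on 4 libraries each and filled symbols for an adjusted p below 0.01. *Prox1*, *Emx2*, *Isl2* and *Isl1* stay right of 0 at both ages, whereas *Prrx1*, *Prrx2* and *Irx1* are closer to 0 at P6 than at P1. The P1 value of *Msx3* rests on 1 count in GFP+ cells.

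The same comparison was made at P6. Among 48 homeobox genes tested, 4 were higher in GFP+ cells (8.33%, against 7.72% of all 18294 genes tested) and 11 were lower (22.9%, against 5.19%). With a fold change above 4 the counts were 4 (against 4.88% of all genes) and 6 (against 3.1%). The median log2 fold change was -0.53 for the homeobox genes and -0.02 for all genes. The counts were 9 higher and 15 lower without P6 GFP+ replicate 1, 6 and 21 without P6 GFP+ replicate 2, 2 and 0 without P6 GFP- replicate 1, and 0 and 0 without P6 GFP- replicate 2. At an unadjusted p below 0.05, edgeR gave 10 higher and 17 lower genes with all 4 libraries, and DESeq2 called 5 and 16. With library totals in place of the TMM normalization, edgeR called 4 and 6.

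The 4 higher genes were *Prox1*, *Emx2*, *Isl1* and *Isl2*, each over 4-fold. *Emx2* had 100.3 and 75.4 CPM in P6 GFP+ cells and 2.40 and 1.71 CPM in P6 GFP- cells (log2 fold change 5.41, standard error 0.29, edgeR adjusted p = 0.000719). *Isl1* measured 276 and 240.3 CPM against 60.5 and 56.2 CPM (log2 fold change 2.14, standard error 0.18, edgeR adjusted p = 0.00152), and *Isl2* 28.6 and 21.9 CPM against 3.99 and 3.81 CPM (log2 fold change 2.69, standard error 0.24, edgeR adjusted p = 0.0017). In all 3 genes the GFP+ libraries were well above the GFP- libraries, and replicate 1, with fewer markers of other cell types, was the higher of the GFP+ pair. *Prox1* had 81.4 and 133 CPM in GFP+ and 3.60 and 2.90 CPM in GFP- cells, with replicate 2 the higher. Without P6 GFP- replicate 2 the calls of *Emx2*, *Isl1* and *Isl2* were lost, at edgeR adjusted p values of 0.0124, 0.0281 and 0.0267, and those of *Isl1* and *Isl2* also without P6 GFP- replicate 1, at 0.0149 and 0.0136.

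*Six2*, called at P1, was not called at P6. It had 37.8 and 34.0 CPM in P6 GFP+ cells and 25.5 and 17.3 CPM in P6 GFP- cells (log2 fold change 0.74, edgeR adjusted p = 0.0613). Both GFP+ libraries were still above both GFP- libraries, and the difference between the ages is tested further on. *Six5* remained lower in GFP+ cells, with 24.3 and 30.9 CPM against 67.5 and 85.7 CPM (log2 fold change -1.48, standard error 0.20, edgeR adjusted p = 0.00512). This call was lost without either P6 GFP- library, at log2 fold changes of -1.58 and -1.32.

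*Dlx5*, a gene of the otic capsule, bone and dorsal otic vesicle, had the largest change among the lower genes named by level, with 0.957 and 3.75 CPM in P6 GFP+ cells and 46.8 and 45.9 CPM in P6 GFP- cells (log2 fold change -4.24, standard error 0.54, edgeR adjusted p = 0.00471). Its neighbour *Dlx6*, 9.236 kb away on chromosome 6, had 0.113 and 0.335 CPM against 2.14 and 2.48 CPM (log2 fold change -3.25, edgeR adjusted p = 0.00799). *Msx3* measured 2.03 and 4.65 CPM in GFP+ and 33.2 and 24.5 CPM in GFP- cells (log2 fold change -3.09, standard error 0.41, edgeR adjusted p = 0.00512). The summed cartilage and bone markers, mostly *Col2a1*, were higher in P6 GFP+ replicate 2 than in replicate 1, at 8012 against 4699 CPM. The bone marker *Ibsp* had 114 against 30.2 CPM. *Dlx5*, *Dlx6* and *Msx3* were likewise higher in replicate 2. Without P6 GFP+ replicate 2 their log2 fold changes were -5.58, -4.31 and -3.81 and the calls held. Their calls were lost without either P6 GFP- library. The log2 fold changes were then -4.2 and -4.31 for *Dlx5*, -3.31 and -3.17 for *Dlx6*, and -2.81 and -3.33 for *Msx3*. With library totals in place of TMM the call of *Dlx6* was lost as well (edgeR adjusted p = 0.011).

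*Irx1* had 6.92 and 21.6 CPM in P6 GFP+ cells and 115 and 109.7 CPM in P6 GFP- cells (log2 fold change -2.98, standard error 0.50, edgeR adjusted p = 0.00961). *Irx2* had 6.30 and 14.6 CPM against 54.7 and 61.2 CPM (log2 fold change -2.47, standard error 0.38, edgeR adjusted p = 0.00773). With library totals in place of TMM the 2 calls were lost at adjusted p values of 0.0144 and 0.0119. Without P6 GFP+ replicate 2 the calls held, at log2 fold changes of -4.00 and -3.18. They were lost without either P6 GFP- library, at log2 fold changes of -2.89 and -3.03 for *Irx1* and -2.495 and -2.41 for *Irx2*. *Irx3* and *Irx5* again lay together in both fractions, with log2 fold changes of 0.19 and 0.03. *Prrx2* had 5.97 and 6.56 CPM against 20.0 and 19.1 CPM (log2 fold change -1.65, standard error 0.20, edgeR adjusted p = 0.00402), and *Prrx1* had 3.21 and 13.1 CPM against 66.4 and 72.0 CPM, which missed the threshold (log2 fold change -3.07, standard error 0.59, edgeR adjusted p = 0.0139). The GFP+ replicates of *Prrx1* thus differed over 4-fold, while those of *Prrx2* were close. *Pax3*, *Pbx3*, *Pou3f3* and *Pou6f1* were the other lower genes, with log2 fold changes of -3.13, -1.11, -1.15 and -1.10. The calls of *Prrx2* and of these genes were lost without either P6 GFP- library. For *Prrx2* the log2 fold changes were then -1.55 and -1.70.

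The P6 GFP+ replicates were set side by side for the genes called at P1, since replicate 2 held more markers of GFP- cell types. All 18 genes lower in GFP+ cells at P1 had a higher CPM in P6 GFP+ replicate 2 than in replicate 1, by a median log2 ratio of 1.16, and 11 of them by over 2-fold. Some of the 11 rest on few counts: 0 and 4 for *Alx1*, 0 and 2 for *Pou2f3*, 1 and 18 for *Pou2f2* and 2 and 17 for *Pou4f2*. Of the 32 homeobox genes with a mean of at least 1 CPM in P6 GFP+ cells, 24 were higher in replicate 2, with a median of 0.36. The share over all genes was not computed. Of the 7 genes higher in GFP+ cells at P1, 3 were higher in replicate 2, with a median log2 ratio of -0.15. Between the P1 GFP+ replicates, 3 of the 18 lower genes were higher in replicate 2, with a median of -0.14. *Prrx2*, with a log2 ratio of 0.14, and *Pbx3*, with 0.32, were among those that differed least between the P6 replicates. Whether carry-over of other cells has a part in the P6 GFP+ values was not tested.

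**Figure D3:**
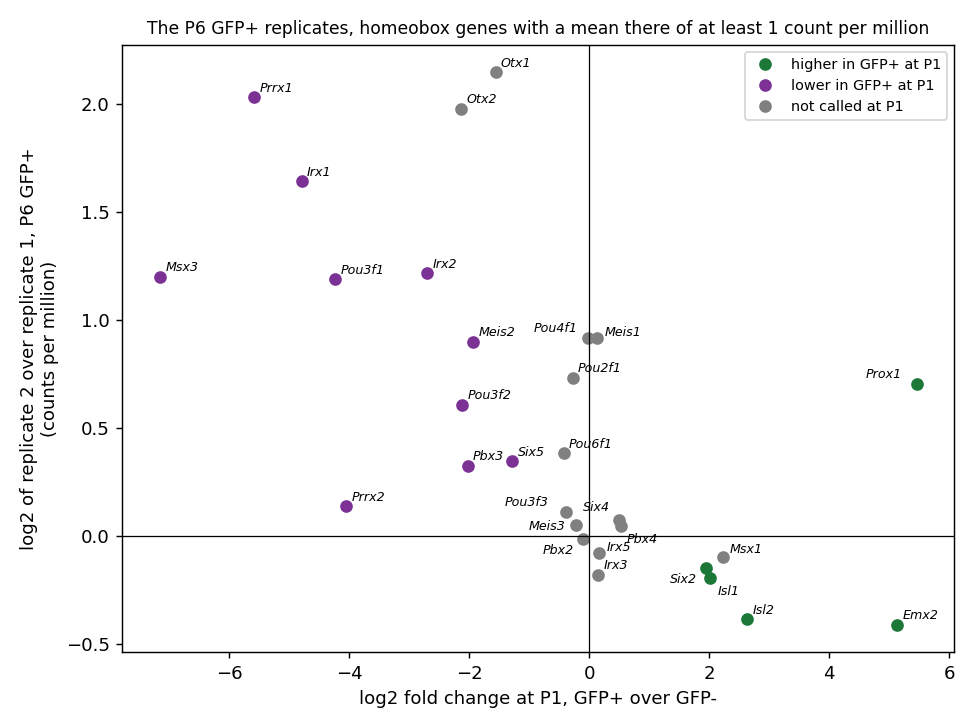
Log2 ratio of P6 GFP+ replicate 2 over replicate 1 (vertical axis) against the log2 fold change of GFP+ over GFP- cells at P1 (horizontal axis), 1 point per homeobox gene with a mean of at least 1 CPM in P6 GFP+ cells. Genes lower in GFP+ cells at P1 (purple) lie above 0, from 0.14 for *Prrx2* to 2.03 for *Prrx1*. Among the genes higher in GFP+ cells at P1 (green), *Emx2*, *Isl1*, *Isl2* and *Six2* lie below 0 and *Prox1* lies above 0.

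To ask how homeobox gene expression changes in supporting cells over the first postnatal week, P6 GFP+ cells were compared with P1 GFP+ cells. Of 37 homeobox genes tested, 2 were higher at P6 (5.41%, against 2.86% of all 17213 genes tested) and 1 was lower (2.7%, against 1.95%). The median log2 fold change was -0.06 for these genes and -0.0024 for all. DESeq2 called 7 and 5. Without P1 GFP+ replicate 2 the counts were 0 and 0, and without P1 GFP+ replicate 1 they were 2 and 1, but without P6 GFP+ replicate 1 they were 14 and 10 and without P6 GFP+ replicate 2 they were 7 and 14. At an unadjusted p below 0.05, edgeR gave 10 higher and 12 lower genes with all 4 libraries. This comparison and those of GFP+ with GFP- cells share libraries and are not independent.

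The gene that was lower at P6 was *Prox1*. Its level of 564 and 520.3 CPM in P1 GFP+ cells compared with 81.4 and 133 CPM in P6 GFP+ cells (log2 fold change -2.25, standard error 0.25, edgeR adjusted p = 0.00671). Each P6 library was over 3-fold below each P1 library. In GFP- cells *Prox1* also had lower values at P6, 3.60 and 2.90 CPM against 7.47 and 18.8 CPM, without passing the test (log2 fold change -1.83, edgeR adjusted p = 0.0264). Without P1 GFP+ replicate 2, the log2 fold change in GFP+ cells was -2.34 with an adjusted p of 0.0131. *Isl1* changed little between the ages in GFP+ cells, with 292 and 280.4 CPM at P1 and 276 and 240.3 CPM at P6 (log2 fold change -0.06, standard error 0.15, edgeR adjusted p = 0.801). *Emx2*, *Isl2* and *Six2* had log2 fold changes of -0.64, -0.63 and -1.07 with edgeR adjusted p values of 0.0649, 0.0769 and 0.0105, and their P6 libraries were below their P1 libraries in every case. DESeq2 called *Six2* lower at P6 in GFP+ cells.

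*Prrx2* was higher at P6, with 1.07 and 1.53 CPM in P1 GFP+ cells and 5.97 and 6.56 CPM in P6 GFP+ cells (log2 fold change 2.38, standard error 0.30, edgeR adjusted p = 0.00931). Both replicates of P6 were above both of P1 and close to each other. Library totals instead of TMM gave an adjusted p of 0.012, and leaving out libraries gave 0.0442 and 0.0569 without either P1 GFP+ library. *Msx3* was the other called gene, at 1 count in P1 GFP+ cells and 175 counts in P6 GFP+ cells, or 2.03 and 4.65 CPM at P6, a ratio of 260 with a 95% interval from 46.0 to 10319 for counting error alone, and its call was lost without P1 GFP+ replicate 2 (edgeR adjusted p = 0.0186). Mesenchyme markers in GFP+ cells went from 530.4 and 475 CPM at P1 to 1771 and 3490 CPM at P6, and their part in these values was not tested. *Pou3f1*, a Schwann cell gene, had 0.284 and 0.0402 CPM at P1 and 3.996 and 9.11 CPM at P6 but missed the threshold (log2 fold change 5.19, edgeR adjusted p = 0.0133). The Schwann cell markers summed to 561 and 526 CPM at P1 and 1122 and 2128 CPM at P6 in the same libraries.

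In GFP- cells, 52 homeobox genes were tested between the ages. At P6, 6 were higher (11.5%, against 5.04% of all 18920 genes tested) and 1 was lower (1.92%, against 2.34%). The median log2 fold change was -0.09 for the homeobox genes and -0.02 for all genes. The counts were 6 and 11 without P1 GFP- replicate 1, 7 and 7 without P1 GFP- replicate 2, and 3 and 0 without either P6 GFP- library, whereas edgeR gave 7 and 11 at an unadjusted p below 0.05 and DESeq2 called 6 and 7 with all 4 libraries. Using library totals in place of TMM moved the median of all genes by -0.19 on the log2 scale, and 4 genes were then higher and 2 lower.

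The largest change was in the neighbours *Dlx5* and *Dlx6*. *Dlx5* went from 0.158 and 0.761 CPM at P1 to 46.8 and 45.9 CPM at P6 (log2 fold change 6.69, standard error 0.44, edgeR adjusted p = 0.000368), and *Dlx6* from 2 counts to 300 counts, a ratio of 117 with a 95% interval from 32.1 to 971 for counting error alone. No P6 library came near a P1 library. The summed cartilage and bone markers went from 15191 and 15090 CPM at P1 to 35487 and 33010 CPM at P6 in GFP- cells. Nearly all of that sum was *Col2a1*, at 15116 and 15014 CPM at P1 and 34336 and 31825 CPM at P6. *Ibsp*, a protein of bone matrix, went from 14.2 and 5.45 CPM to 778 and 762 CPM, whereas *Matn1* went from 14.1 and 19.7 CPM to 5.72 and 5.38 CPM. Of these 6 markers, 4 were called higher at P6 and 1 lower. Their part in the *Dlx* values was not tested. *Dlx1* went down, from 7.39 and 6.16 CPM to 0.859 and 1.09 CPM (log2 fold change -2.60, standard error 0.27, edgeR adjusted p = 0.00153), a call lost without either P6 GFP- library (0.0214 and 0.0148), and *Dlx2* beside it had 3.19 and 3.03 CPM at P1 and 1.18 and 1.45 CPM at P6 without passing the test (log2 fold change -1.05, edgeR adjusted p = 0.0407).

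*Msx3* went from 2.85 and 2.33 CPM at P1 to 33.2 and 24.5 CPM at P6 (log2 fold change 3.68, standard error 0.23, edgeR adjusted p = 0.000328). It was therefore called between the ages in both fractions. *Pou3f1* rose from 3.72 and 4.12 CPM to 13.3 and 11.3 CPM (log2 fold change 1.84, standard error 0.20, edgeR adjusted p = 0.0018). This call was lost with all 8 libraries in the fit (edgeR adjusted p = 0.0295). It was also lost without either P6 GFP- library, at log2 fold changes of 1.69 and 1.995. The pseudogene entry over the exons of *Pou3f1* leaves its counts uncertain here too. *Irx2* went from 38.8 and 38.2 CPM to 54.7 and 61.2 CPM (log2 fold change 0.78, standard error 0.11, edgeR adjusted p = 0.0045) and *Irx1* from 75.8 and 81.8 CPM to 115 and 109.7 CPM (log2 fold change 0.70, standard error 0.11, edgeR adjusted p = 0.00608). The *Irx* changes did not hold in all fits either: with library totals their log2 fold changes were 0.59 and 0.51, with adjusted p values of 0.0158 and 0.0176, and with all 8 libraries in the fit the adjusted p values were 0.107 and 0.254. The neuronal *Pou4f1* and *Pou4f2* had log2 fold changes of -2.30 and -2.64 with edgeR adjusted p values of 0.0251 and 0.0167, and at P1 their higher value was in the library with more neuronal markers.

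**Figure D4:**
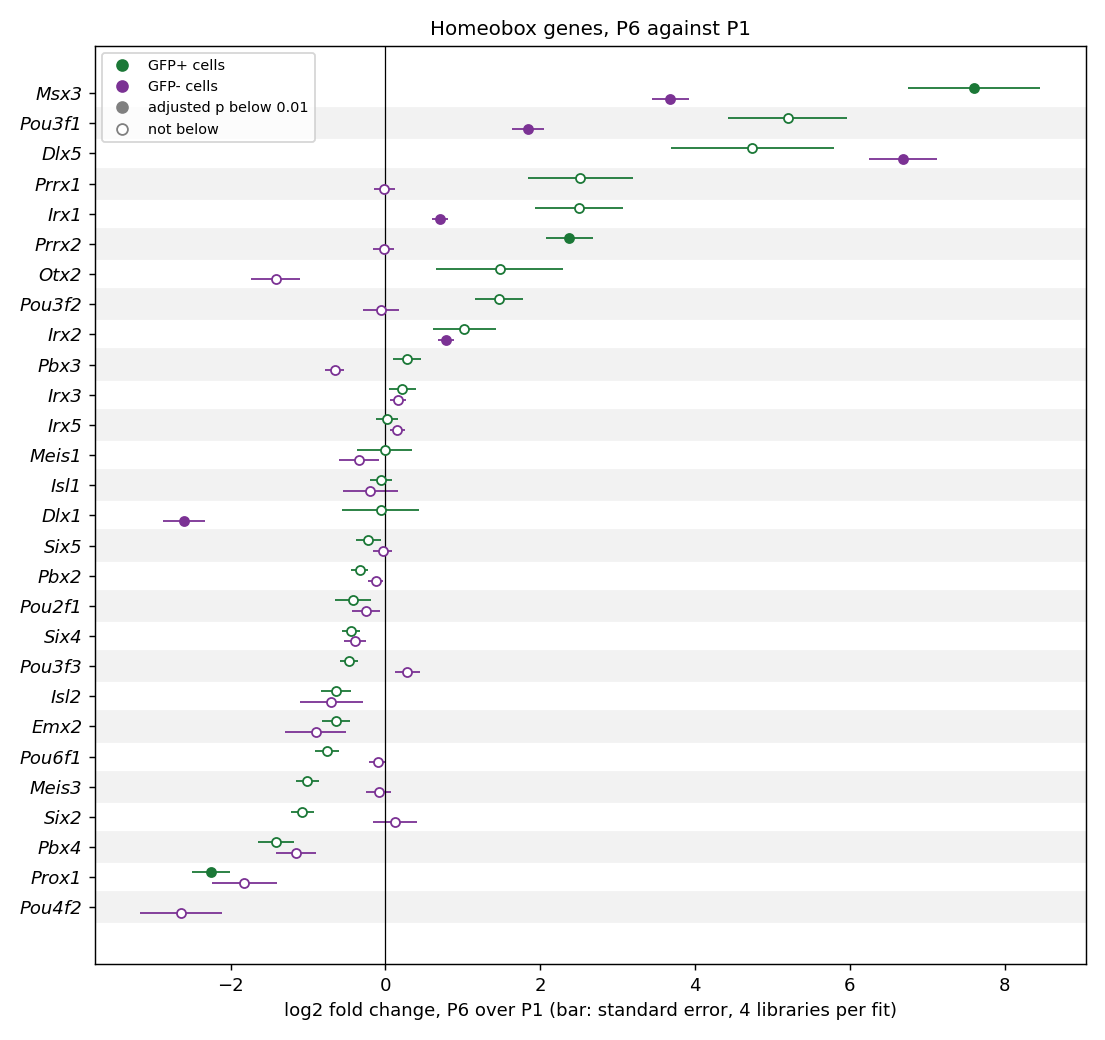
Log2 fold change of P6 over P1 in GFP+ cells (green) and in GFP- cells (purple) for the homeobox genes with a mean of at least 5 CPM in 1 of the groups, with bars for the standard error of fits on 4 libraries each and filled symbols for an adjusted p below 0.01. *Prox1* is the filled green symbol left of 0, *Dlx5*, *Msx3*, *Pou3f1*, *Irx2* and *Irx1* are the filled purple ones right of 0, and *Dlx1* is the filled purple one left of 0. The GFP+ value of *Msx3* rests on 1 count at P1.

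A fit of all 8 libraries asked if the difference between the fractions itself changed with age, through its interaction term. Of 52 homeobox genes tested, 1 was called with a ratio of GFP+ to GFP- that was higher at P6 (1.92%, against 0.946% of all 19233 genes tested), and 0 with a lower ratio (0%, against 0.988%). At an unadjusted p below 0.05, edgeR gave 12 and 4 genes, and DESeq2 called 7 and 0. The called gene was *Prrx2*: its log2 fold change between the fractions was -4.06 at P1 and -1.65 at P6, and the interaction was 2.39 (standard error 0.28, edgeR adjusted p = 0.00339). Its adjusted p was 0.000805 without P6 GFP+ replicate 1 and 0.00158 without P6 GFP+ replicate 2, and it was above 0.01 without P1 GFP+ replicate 1 (0.0293), P1 GFP+ replicate 2 (0.0164), P1 GFP- replicate 2 (0.0106), P6 GFP- replicate 1 (0.0288) and P6 GFP- replicate 2 (0.0321). For *Six2*, called at P1 and not at P6, the interaction was -1.22 with an edgeR adjusted p of 0.108, so its difference between the fractions was not shown to change. *Dlx1*, *Dlx2*, *Pax3*, *Pbx3* and *Pou3f1* had interactions of 2.53, 3.36, 4.66, 0.91 and 3.31 with adjusted p values of 0.0327 to 0.0406, all above the threshold.

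Many homeobox proteins act with partners, and lists of these were looked up in the same fits. Of 7 genes for SIX-family cofactors, 3 were higher and 2 lower in GFP+ cells at P1, where 37.3% of all genes were called in either direction. *Eya1*, a phosphatase that binds SIX-family proteins, had 474 and 433 CPM in GFP+ and 167 and 233 CPM in GFP- cells (log2 fold change 1.29, edgeR adjusted p = 0.00149). *Eya4*, a gene of its family, had 305 and 282 CPM against 88.1 and 90.0 CPM (log2 fold change 1.83, edgeR adjusted p = 4.67e-05), whereas *Eya2* had 1.79 and 2.41 CPM against 32.4 and 30.3 CPM (log2 fold change -3.82, edgeR adjusted p = 3.03e-05). The *Dach* genes, which encode co-repressors of the same network, also differed from each other, with a log2 fold change of 2.44 for *Dach2* and -1.15 for *Dach1*. At P6 *Eya4* and *Dach2* remained higher and *Eya2* lower in GFP+ cells, and 12.9% of all genes were called. Between the ages, where 4.81% of all genes were called in GFP+ and 7.38% in GFP- cells, *Dach2* was lower at P6 in GFP+ cells (log2 fold change -1.37), and in GFP- cells *Eya2* was higher (0.75) and *Dach1* lower (-1.31). The median log2 fold change of the 7 genes was 0.24 at P1 and 0.03 at P6.

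Of 10 cofactors of LIM homeodomain proteins such as ISL1, 7 were called at P1, where 20.7% of all genes were lower, and 4 at P6, where 5.19% were lower, and each was lower in GFP+ cells. *Ldb2*, which bridges LIM proteins, had 10.6 and 11.5 CPM in P1 GFP+ and 56.0 and 58.7 CPM in P1 GFP- cells (log2 fold change -2.27, edgeR adjusted p = 2.56e-05). The related *Ldb1* was not called, with 322 and 367 CPM in GFP+ and 329 and 289 CPM in GFP- cells. *Ssbp2*, *Ssbp3* and *Ssbp4*, whose proteins bind LDB, were lower at both ages, with log2 fold changes of -2.54, -1.18 and -1.15 at P1 and -1.77, -1.35 and -1.05 at P6. The median of the 10 genes was -1.11 at P1 and -0.66 at P6. Of 5 other TALE genes, *Tgif2* was higher (log2 fold change 0.65) and *Pknox2* (-2.43) and the tendon gene *Mkx* (-3.04) were lower in GFP+ cells at P1, where 16.6% of all genes were higher and 20.7% lower, and the last 2 were also lower at P6, where 5.19% were lower. Of 6 Groucho co-repressors, *Tle2* (-2.51), *Tle6* (-3.26) and *Aes* (-0.40) were lower in GFP+ cells at P1, against the same 20.7%. In GFP- cells *Mkx* was higher at P6 than at P1 (log2 fold change 1.00).

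The other members with low counts add a few values. *Hmx2* and *Hmx3*, neighbours on chromosome 7 that act in the vestibular ear, had 1.24 and 1.61 CPM in P6 GFP+ replicate 2 and at most 0.584 CPM in every other library. *Otx1* and *Otx2*, known from head and otic patterning, also had their highest P6 values in that library, at 2.24 and 4.65 CPM against 0.506 and 1.18 CPM in replicate 1. The 3 stria markers had their highest sum there too, 57.6 CPM against at most 20.5 CPM in the other libraries, and whether this tissue has a part in the 4 genes was not tested. *Msx1* had 1.18 and 1.10 CPM in P6 GFP+ cells and 0.276 and 0.236 CPM in P6 GFP- cells and missed the threshold (log2 fold change 2.14, standard error 0.41, edgeR adjusted p = 0.0137). *Pax2* stayed between 0.394 and 2.57 CPM in all libraries and was not called in any comparison.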

How the data were processed

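The authors deposited 1 file of unnormalized counts over Ensembl genes for each of the 8 libraries, made from paired-end reads aligned to mm9 with TopHat (1.4.0 in the submitters' processing notes) and counted per gene with HTSeq. The library kit does not keep strand, and the counting mode is not given in the sources used here. Rows for reads on no gene, on several genes or at several places were left out (gene counts were 64.7% to 76.2% of all rows).

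Samples were grouped by age and fraction as labelled. CPM are counts per 1000000 counts on genes, and intervals of ratios of low counts are exact binomial (Clopper-Pearson) and cover counting error only. Each comparison was fitted on its 4 libraries, the interaction on all 8, with edgeR 4.0.16 in R 4.3.3 (filterByExpr with minimum count 10 and total 15, TMM, quasi-likelihood test, Benjamini-Hochberg adjustment over all genes tested). Standard errors are the absolute log2 change divided by the square root of F. No record ties the replicates to separate litters, so p-values measure the spread between these samples, which may be technical. Procedures were tested on simulated data. Alternatives were DESeq2's size factors and test, library totals, unfiltered counts, a joint fit of 8 libraries, replicate blocks, a fold threshold and leaving out each library. Positions, exons and sequences came from the NCBIM37 annotation and genome, and other tools were DESeq2 1.42.0, Python 3.11.15 and matplotlib 3.10.9. Full values are given for up to 6 called genes per direction with a mean of at least 5 CPM in the higher group. Other called genes and pairs within a family are given more briefly, chosen after their values were seen. The gene families, marker lists and cofactor lists were chosen with earlier results of these data known. A few of the 77 genes enter the counts and sums but are not reported by name here, in the text or the plots.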

Additional observations from a re-analysis of the deposited data

Results flagged for a closer look

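*Prrx2* differed between the ages in its ratio of GFP+ to GFP- cells, by a direct test of that difference. The log2 of the ratio at P6 minus that at P1 was 2.39 (edgeR's quasi-likelihood test of the interaction, adjusted p = 0.00339), from 1.07 and 1.53 CPM in P1 GFP+, 23.5 and 21.9 CPM in P1 GFP-, 5.97 and 6.56 CPM in P6 GFP+ and 20.0 and 19.1 CPM in P6 GFP- cells. The adjusted p was above 0.01 without P1 GFP+ replicate 1, P1 GFP+ replicate 2, P1 GFP- replicate 2, P6 GFP- replicate 1 or P6 GFP- replicate 2 (0.0106 to 0.0321) and with a replicate block (0.0114). Of 8 mesenchyme markers, 1 was called in the same direction, with a median interaction of 1.77 over the 8, and their part in the *Prrx2* value was not tested.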

How the results depend on the processing

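Of 51 results called for single genes, 40 kept their call with DESeq2's size factors, library totals, the DESeq2 test, low counts left unfiltered, a joint fit of 8 libraries and the blocks for replicate number, and 0 changed direction under any alternative, leaving out libraries included. Library totals in place of TMM ended 8 calls, among them *Irx1* and *Irx2* at P6 and in GFP- cells, and shifted the median of all genes by -0.10 at P1, -0.09 between ages in GFP+ cells, -0.19 in GFP- cells and 0.12 in the interaction. DESeq2's test ended the call of *Alx1* at P1 (adjusted p = 0.0184).

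For P6 GFP+ against GFP- cells, 11 genes were lower, and 6 with library totals as with a fold above 4. In GFP+ cells 2 genes were higher at P6, and 1 with library totals, 7 with DESeq2, 11 without the filter and 6 with all 8 libraries. Lower at P6 was 1, and 2 with library totals, 5 with DESeq2, 8 without the filter and 4 with all 8 libraries. In GFP- cells 6 were higher, and 3 with all 8 libraries or a fold above 4, and 1 was lower, and 2 with library totals, 7 with DESeq2 and 9 without the filter. In the interaction 1 was higher, and 7 with DESeq2 and 12 without the filter, and 0 were lower, and 1 without the filter. The cause of these shifts was not tested. With TMM-scaled library sizes the summed CPM of all 77 genes was 2087 in P1 GFP+, 1467 in P1 GFP- and 1602 in P6 GFP- cells, against means of 2139, 1599 and 1498.

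Leaving out 1 library in turn gave 4 to 9 higher and 11 to 23 lower genes at P1, 0 to 9 and 0 to 21 at P6, 0 to 14 and 0 to 14 between the ages in GFP+ cells, 3 to 7 and 0 to 11 in GFP- cells, and 0 to 8 and 0 to 1 in the interaction. A side left with 1 library was assumed to vary like the other.

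Replicate numbers are shared between the groups, but the differences between replicates 2 and 1 correlated across genes by 0.0397 at P1 and 0.0591 at P6 between the fractions, and by -0.170 and -0.327 between the ages in GFP+ and GFP- cells, so the numbers were not taken to pair the samples. A replicate block gave 5 higher genes between the ages in GFP+ cells and 0 in the interaction, and ended 5 calls: *Alx1* at P1, *Pbx3* at P6, *Irx1* and *Irx2* in GFP- cells and *Prrx2* in the interaction (adjusted p = 0.0114). A crossed block, added after seeing the data, called 2 lower genes in GFP+ and 9 in GFP- cells.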
